A study of Mus musculus with 24 samples.

Results

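The 10 genes described here move, store or release iron and haem, and they were followed in myeloid cells of the mouse colon. They were Slc40a1, Hmox1, Slc11a1, Slc11a2, Fth1, Ftl1, Tfrc, Hamp, Blvrb and Ireb2, and were taken as the rows of the deposited expression table whose Ensembl identifier maps to those 10 symbols. The table held 17301 genes, and 9 of the 10 had a row. Hamp, the gene of the hormone hepcidin, had no row in the table analysed here, so no value is given for it. All 9 genes with a row passed the filter on low values, which left 12878 genes for testing.

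The libraries were made from F4/80hi MHCIIhi macrophages, F4/80hi MHCIIlow macrophages, Ly6Chi MHCII- monocytes and Ly6Ghi F4/80- CD11b+ neutrophils, sorted by flow cytometry from healthy lamina propria (LP) of the colon and from colon tumours. LP came from C57BL/6J mice (strain C57/BL in the labels). Tumours came from Apc Min/+ mice (APC/Min in the labels), whose inherited Apc mutation leads to adenomas of the intestine, and tumour growth was accelerated with dextran sodium sulphate (DSS). The methods describe DSS for control mice as well, whereas the labels call the LP healthy, so the treatment of the LP donors is not settled, and the labels give no age. Each of the 8 groups had 3 libraries, 24 in all, and each library was made from the pooled tissue of several mice, so that the spread between libraries is a spread between pools. The isolation also differed: LP was stripped of epithelium with EDTA and digested with collagenase, and tumours were digested with collagenase and DNase, each with its own density gradient. Tissue, genotype and isolation cannot be told apart in these groups.

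Iron enters a cell bound to transferrin through the transferrin receptor (Tfrc) and reaches the cytosol from the endosome through the transporter DMT1 (Slc11a2). A related transporter, NRAMP1 (Slc11a1), sits in the phagosome of macrophages and neutrophils and withdraws metal from engulfed microbes. Ferritin, a shell of heavy (Fth1) and light (Ftl1) chains, stores iron, and ferroportin (Slc40a1) is the known iron exporter of mammalian cells and is removed from the membrane by hepcidin. Macrophages that clear red cells open the haem ring with haem oxygenase 1 (Hmox1), which frees iron, carbon monoxide and biliverdin, and biliverdin reductases (Blvrb, Blvra) reduce the product. Iron-regulatory proteins (Aco1 and Ireb2) bind hairpins called iron-responsive elements in cells short of iron. Binding in the 5′ untranslated region (UTR) blocks translation, and binding in the 3′ UTR protects the messenger RNA, so RNA levels of the former genes do not show how much protein is made.

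The hairpins are shown because they divide these genes into those under translational control and those whose RNA is protected. A C followed by 5 bases, the loop CAGTGN and 5 bases pairing with the 5 before the loop was searched on the sense strand of annotated transcripts, and it was found in a UTR of 4 of the genes. The paired form occurred in the 5′ UTR of 0.128% and in the 3′ UTR of 0.576% of 21864 protein-coding genes. A form with 1 unpaired base was counted apart from the paired form. It was found in the 3′ UTR of Slc11a2 and in the 3′ UTR of 1.07% of protein-coding genes. Sequences are from GENCODE transcripts on GRCm38, 5′ to 3′, and capitals mark the loop.
Fth1, 5′ UTR, chr19:9982733-9982759, plus strand: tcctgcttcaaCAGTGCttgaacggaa
Ftl1, 5′ UTR, chr7:45459780-45459806, minus strand: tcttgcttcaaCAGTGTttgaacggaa
Slc40a1, 5′ UTR, chr1:45925466-45925492, minus strand: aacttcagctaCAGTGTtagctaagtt
Slc11a2, 3′ UTR, chr15:100395153-100395180, minus strand: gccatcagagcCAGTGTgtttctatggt
Tfrc, 3′ UTR, first site, chr16:32631220-32631246, plus strand: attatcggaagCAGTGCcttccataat
Tfrc, 3′ UTR, last site, chr16:32631711-32631737, plus strand: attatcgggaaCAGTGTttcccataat
The remaining Tfrc sites, at chr16:32631599-32631625 and chr16:32631664-32631690, had the loops CAGTGT and CAGTGA. No match was found in the UTRs of the searched transcripts of Hmox1, Slc11a1, Blvrb or Ireb2, which says only that these letters are not there. Matches in coding sequence were not recorded. A match is a description of sequence, and no binding was measured.

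Values are RPKM (reads per kilobase of gene, relative to library size), which allow levels to be compared between genes, and differences are of mean log2 RPKM. The libraries held between 12.8 and 41.7 M reads on genes (median 26.4 M). MHC class II and neutrophil markers followed the sort. The 4 MHC class II markers summed to 16672 RPKM or more in every MHCIIhi library and to at most 9853 in MHCIIlow libraries. The 7 neutrophil markers summed to at least 11604 in neutrophils and at most 301 elsewhere. The 5 monocyte markers did not single out monocytes, since within each tissue every neutrophil library had a larger sum. For LP, neutrophils had 570 to 609 RPKM against 285 to 401 for monocytes. For tumours these ranges were 744 to 986 against 385 to 635. Macrophage libraries had at most 18.1. Markers of other cells moved with tissue. The 6 B and plasma cell markers lay between 358 and 1300.3 RPKM (summed) in LP neutrophils and between 157 and 575 in LP monocytes, against at most 20.1 in their tumour counterparts. The 8 epithelial markers together had 87.3 to 275 RPKM in tumour monocytes and 140 to 267 in neutrophils of the same tissue, against 11.4 to 153 in both LP populations. The 6 erythroid markers with a row summed to 0.0409 to 0.853 RPKM in LP libraries and to 1.31 to 19.5 in tumour libraries. Library sizes in the deposited values had been scaled by 0.466 to 1.51 times the reads, lowest in tumour neutrophils (0.466 to 0.483) and next lowest in LP neutrophils (0.630 to 0.682), which raises the values of neutrophils relative to other cells. With plain sums of reads, the median of all genes in neutrophils moved from -0.24 to -1.05 against monocytes in LP, from -0.36 to -1.45 against monocytes in tumours, and from -0.12 to -0.57 between tumour and LP.

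**Figure D1:**
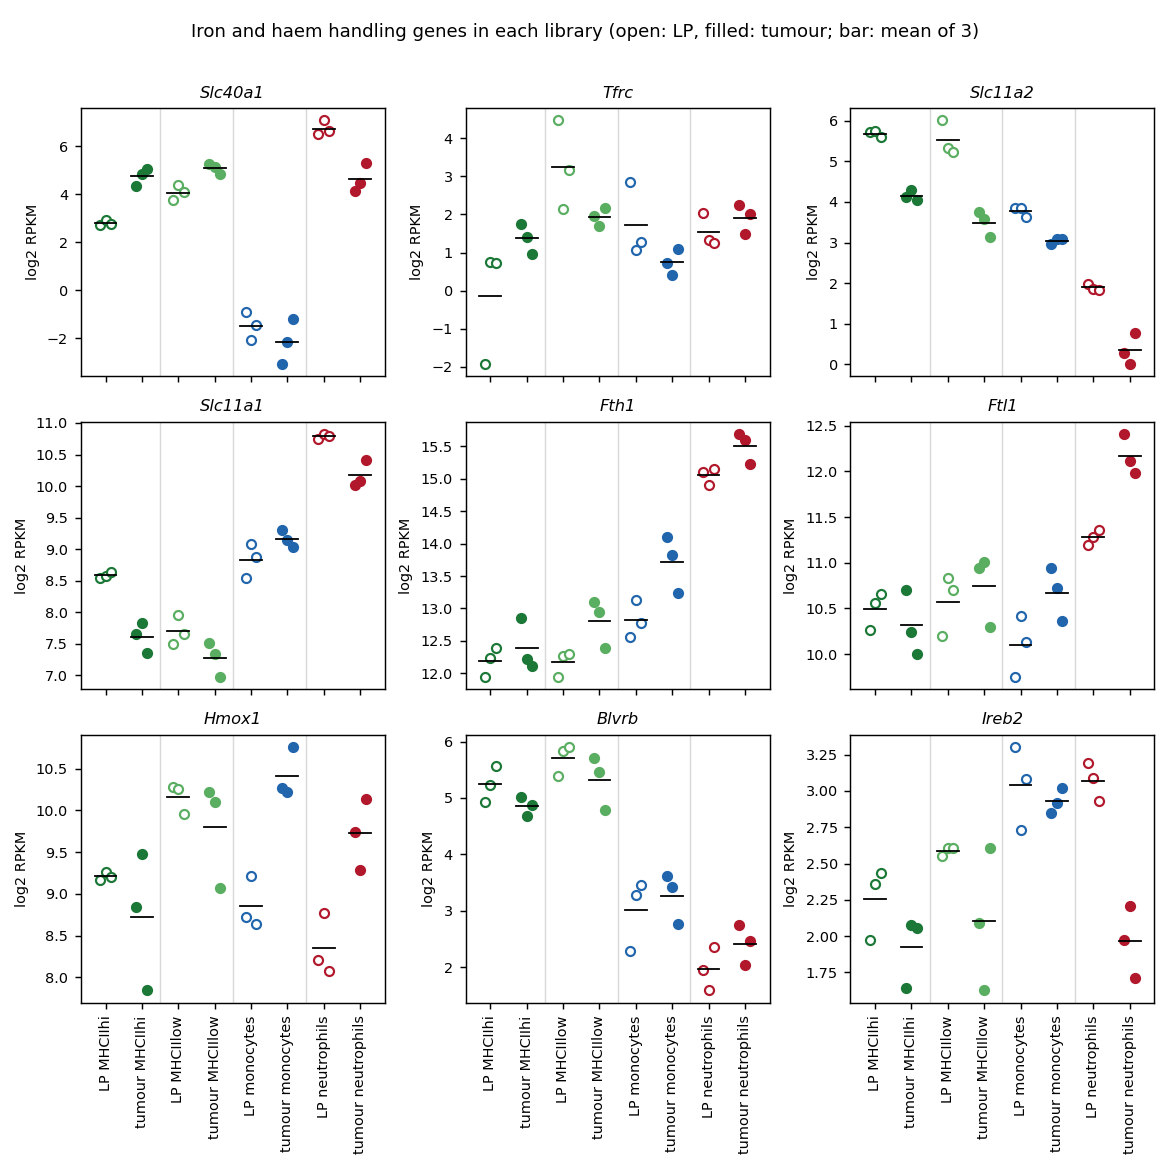
Level of the 9 genes in each library. The y axis is log2 RPKM and each panel is a gene, with 8 groups of 3 libraries on the x axis, LP as open and tumour as filled points, and the mean as a bar; Slc40a1 separates monocytes (at most -0.90) from all other groups (at least 2.73), and Slc11a2 is lower in tumour than in LP within each population.

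The first question was whether these genes differ between tumour and LP in each population. In MHCIIhi macrophages 3 of 9 genes passed the test (1 higher in tumours, 2 lower), where 19.5% of all tested genes did (8.01% higher, 11.5% lower). In MHCIIlow macrophages 1 of 9 was lower, where 23.3% of all genes passed (11.5% higher, 11.8% lower). In monocytes 2 of 9 passed, 1 in each direction, where 9.29% of all genes passed (4.86% higher, 4.43% lower). In neutrophils 6 of 9 passed (2 higher, 4 lower), where 32.2% of all genes passed (13.1% higher, 19% lower). The split was 1 higher and 4 lower with quantile normalization or with summed reads. Of all called genes 40.8% were higher in tumours here, 49.0% with quantile normalization and 16% with summed reads (799 higher, 4206 lower). The tests were limma's moderated test over all 12878 genes with Benjamini-Hochberg adjustment and a threshold of 0.05. The medians over the 9 genes, -0.33, -0.39, 0.25 and 0.37 in MHCIIhi macrophages, MHCIIlow macrophages, monocytes and neutrophils, stood beside medians of all genes of 0.00, 0.06, 0.00 and -0.12. Libraries of the 2 tissues did not overlap in 43.0%, 42.1%, 31.4% and 40.1% of all tested genes, in the same order. In sorted bulk RNA, a smaller share of expressing cells and less RNA per cell cannot be told apart.

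**Figure D2:**
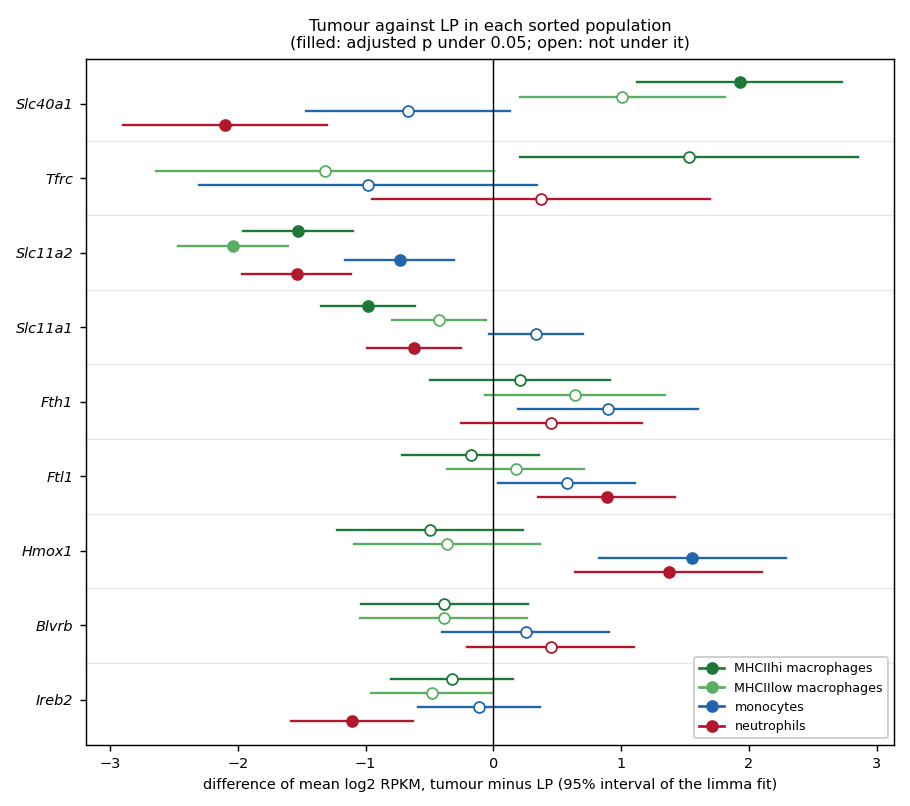
Difference between tumour and LP for each gene in the 4 sorted populations. The x axis is the difference of mean log2 RPKM (tumour minus LP, n = 3 against 3), lines are 95% intervals of the fit, and filled points have an adjusted p under 0.05; Slc11a2 lies left of 0 in all 4 populations, whereas Slc40a1 is to the right in macrophages and to the left in neutrophils.

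Slc40a1 (ferroportin, chromosome 1, 45908068 to 45926523) passed the test between tissues in opposite directions, higher in tumours in MHCIIhi macrophages and lower in neutrophils. LP MHCIIhi macrophages had 6.63, 7.66 and 6.82 RPKM in pools III, IV and V, and tumour MHCIIhi macrophages had 20.2, 28.5 and 33.2 in pools I, V and VII. Every tumour library was above every LP library, and the 3.81-fold rise passed the test (log2 difference 1.93, SE 0.38, limma adjusted p = 0.00101). MHCIIlow macrophages had 13.3, 20.5 and 17.0 RPKM in LP and 37.8, 34.8 and 28.8 in tumours. The groups again did not overlap, but the difference of 1.01 (SE 0.38) did not pass (limma adjusted p = 0.0595), and 5 of 15 alternatives called it.

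Neutrophils went the other way. LP neutrophils had 91.0, 134 and 98.0 RPKM of Slc40a1, the highest level of any group, and tumour neutrophils had 17.5, 22.3 and 38.7. The 4.29-fold fall (-2.10, SE 0.38, limma adjusted p = 0.000283) passed under every alternative, with -1.75 under quantile normalization and -2.57 under summed reads. B and plasma cell markers were also higher in LP than in tumour neutrophils (358 to 1300.3 against 0.660 to 20.1 RPKM), as were dendritic cell markers (19.6 to 43.3 against 1.01 to 4.35) and fibroblast markers (20.7 to 40.3 against 1.27 to 1.57), and their part in this result was not tested. Macrophage markers summed to 726 to 792 in LP and 601 to 667 in tumour neutrophils. LP macrophages had at most 20.5 RPKM of Slc40a1, and any part of macrophage RNA in the neutrophil values was not tested. Monocytes had little Slc40a1 in either tissue, with 0.535, 0.236 and 0.368 RPKM in LP and 0.120, 0.221 and 0.439 in tumours, from 32 to 121 reads a library, and did not pass (-0.67, SE 0.38, limma adjusted p = 0.321).

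The tumour effect on Slc40a1 was larger in macrophages (mean of both subsets) than in monocytes by 2.14 (SE 0.46, limma adjusted p = 0.00473), a call lost with voom on the recovered reads (adjusted p = 0.123). Against neutrophils the difference was 3.57 (SE 0.46, limma adjusted p = 1.32e-05), in a comparison chosen after seeing the data. In descending order the levels were LP neutrophils, tumour MHCIIlow macrophages, tumour MHCIIhi macrophages, tumour neutrophils, LP MHCIIlow macrophages, LP MHCIIhi macrophages, LP monocytes and tumour monocytes. The libraries overlapped between neighbours from the second to the fifth place and between the monocyte groups. In LP, MHCIIlow macrophages exceeded MHCIIhi macrophages by 1.25 (SE 0.38, limma adjusted p = 0.0473), and this call was lost without each of the 6 libraries in turn (adjusted p 0.0675 to 0.139).

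Slc11a2 (DMT1, chromosome 15, 100387898 to 100425072) was lower in tumours in all 4 populations. LP MHCIIhi macrophages had 52.6, 53.8 and 48.2 RPKM against 17.5, 19.5 and 16.6 in tumours (-1.53, SE 0.20, limma adjusted p = 1.65e-05). LP MHCIIlow macrophages had 64.5, 40.4 and 37.4 against 13.5, 11.9 and 8.79, a 4.10-fold fall (-2.04, SE 0.20, limma adjusted p = 4.50e-07). Neutrophils had 3.94, 3.63 and 3.57 against 1.21, 1.01 and 1.70 (-1.54, SE 0.20, limma adjusted p = 1.10e-05), with 52 to 96 reads in the tumour libraries. No tumour library reached its LP counterpart in any of the 4 populations.

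In monocytes the fall of Slc11a2 was smaller. LP monocytes had 14.4, 14.4 and 12.4 RPKM and tumour monocytes 7.80, 8.43 and 8.53 (-0.73, SE 0.20, limma adjusted p = 0.0254). The call was lost with the donor number as a fixed block (adjusted p = 0.0864), which gives equal numbers in LP and tumours 1 term although they come from different mice, and when LP pool III or IV or any tumour pool was left out (adjusted p 0.0549 to 0.0881). The fall was larger in macrophages than in monocytes by 1.05 on the log2 scale (-1.05, SE 0.25, limma adjusted p = 0.00884), which the fixed block also removed (adjusted p = 0.0812). Within each tissue macrophages had the highest levels and neutrophils the lowest. LP MHCIIhi and LP MHCIIlow macrophages overlapped, and so did LP monocytes and tumour MHCIIlow macrophages, while all other neighbours in the order were apart. The antisense gene Gm5475 covers 6.33% of the Slc11a2 exons and the library kit does not mark strand, so reads from it cannot be told apart. The erythroid markers given above were higher in tumours in all 4 populations, and their part in this result was not tested.

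Slc11a1 (NRAMP1, chromosome 1, 74375195 to 74386062) was far above its paralogue in each population, from 2.17 on the log2 scale in LP MHCIIlow macrophages to 9.82 in tumour neutrophils. LP neutrophils had 1721, 1817 and 1777 RPKM and tumour neutrophils 1038, 1084 and 1368, without overlap (-0.62, SE 0.17, limma adjusted p = 0.01), and the fall was -1.09 under summed reads and -1.27 under quantile normalization. LP MHCIIhi macrophages had 373, 383 and 400 against 202, 226 and 163 in tumours (-0.98, SE 0.17, limma adjusted p = 0.000394). In both populations every tumour library was below every LP library. MHCIIlow macrophages had 179, 248 and 201 in LP and 182, 161 and 125 in tumours, with overlap (-0.43, SE 0.17, limma adjusted p = 0.0846), and passed only without tumour pool I (adjusted p = 0.0475). Monocytes had 374, 544 and 468 in LP and 635, 567 and 525 in tumours, also with overlap (0.33, SE 0.17, limma adjusted p = 0.276).

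The tumour effect on Slc11a1 differed between populations. It was lower in macrophages than in monocytes by 1.03 (-1.03, SE 0.21, limma adjusted p = 0.00325) and lower in neutrophils than in monocytes by 0.95 (-0.95, SE 0.25, limma adjusted p = 0.0194). The latter call was lost without LP monocyte pool III (adjusted p = 0.0572) or tumour monocyte pool I (adjusted p = 0.0503). In LP, MHCIIlow macrophages had 1.86-fold less Slc11a1 than MHCIIhi macrophages (-0.89, SE 0.17, limma adjusted p = 0.0027). The order ran from LP neutrophils through tumour neutrophils, tumour monocytes, LP monocytes and LP MHCIIhi macrophages down to LP MHCIIlow, tumour MHCIIhi and tumour MHCIIlow macrophages. Neighbours overlapped from tumour monocytes to LP MHCIIhi macrophages and among the last 3 groups.

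**Figure D3:**
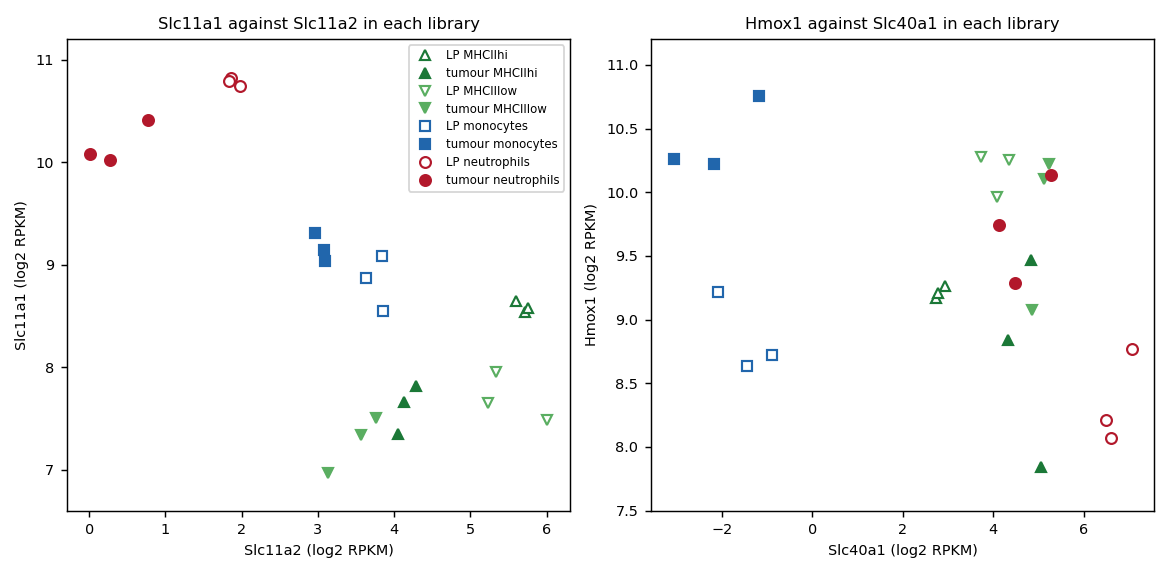
Levels of paired genes in each library (log2 RPKM on both axes), Slc11a1 against Slc11a2 and Hmox1 against Slc40a1, with LP as open and tumour as filled symbols and a shape and colour for each population. Neutrophils combine the highest Slc11a1 (10.02 or more) with the lowest Slc11a2 (1.98 or less), and tumour monocytes combine Hmox1 of 10.22 or more with Slc40a1 of -1.19 or less.

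Tfrc (chromosome 16, 32608920 to 32632794) was low, at 0.264 to 22.1 RPKM, and the pools of LP macrophages and monocytes varied widely. LP MHCIIhi macrophages had 0.264, 1.67 and 1.65 RPKM and LP MHCIIlow macrophages 22.1, 4.39 and 8.92, so that pool III of the former (67 reads) and pool II of the latter stood apart. The groups did not overlap, and the difference of 3.40 passed (SE 0.62, limma adjusted p = 0.00164), but not in a fit of these 6 libraries alone (adjusted p = 0.103). Without pool III of the MHCIIhi cells it was 2.52, and without pool II of the MHCIIlow cells 2.80. Tfrc passed in no population between tumour and LP. The values were 3.36, 2.67 and 1.95 RPKM in tumour MHCIIhi macrophages (1.53, SE 0.62, limma adjusted p = 0.0952) and 3.89, 3.22 and 4.49 in tumour MHCIIlow macrophages (-1.31, SE 0.62, limma adjusted p = 0.144), the latter called with log2(RPKM + 1) (adjusted p = 0.0392), with voom (adjusted p = 0.0249) and without LP pool III (adjusted p = 0.0487). Monocytes had 7.22, 2.08 and 2.44 in LP and 1.66, 1.33 and 2.14 in tumours, and neutrophils 4.08, 2.52 and 2.37 and 4.76, 2.78 and 4.0. All 7 pairs of neighbours in the order of groups overlapped.

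Fth1 (chromosome 19, 9980598 to 9985098) was among the most abundant messengers in all libraries, ranking from 1 to 7 among all genes. Neutrophils had 35368, 30517 and 36338 RPKM in LP and 53014, 49831 and 38251 in tumours, and Fth1 was the first-ranked gene in all 6 of these libraries. Its share of all reads on genes was 1.80 to 2.04% in LP and 1.60 to 2.15% in tumour neutrophils. Tissue made no difference that passed the test in any population. The differences were 0.21 in MHCIIhi macrophages, 0.64 in MHCIIlow macrophages, 0.90 in monocytes and 0.46 in neutrophils (SE 0.33 each, limma adjusted p 0.741, 0.185, 0.102 and 0.321), with intervals that reached up to 0.91, 1.35, 1.60 and 1.16 (95%, 16 residual degrees of freedom). Monocytes had 6023, 8991 and 7050 in LP and 17538, 14543 and 9685 in tumours, and every tumour library was higher. Their difference passed with log2(RPKM + 1) (adjusted p = 0.0198), without the filter on low values (adjusted p = 0.0350) and with voom (adjusted p = 0.00934). The neutrophil and MHCIIlow libraries of the tissues did not overlap either, and the MHCIIlow difference passed with voom (adjusted p = 0.0346). MHCIIhi macrophages ranged from 3931 to 5348 in LP and from 4417 to 7386 in tumours, and MHCIIlow macrophages from 3942 to 5041 in LP and from 5366 to 8741 in tumours.

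Fth1 separated the cell types more than the tissues. Neutrophils exceeded monocytes by 2.23 in LP and by 1.78 in tumours (SE 0.33 each, limma adjusted p = 1.24e-05 and 0.000126). Quantile normalization reduced both to 0.41 and 0.21 (adjusted p = 0.256 and 0.582), and this normalization gives the first-ranked gene the same value in every library. Tumour macrophages had less than tumour monocytes, by -1.33 in MHCIIhi cells (limma adjusted p = 0.00413) and by -0.91 in MHCIIlow cells (limma adjusted p = 0.0420). In fits of only the libraries compared, neither the MHCIIhi call (adjusted p = 0.251) nor that of tumour neutrophils against monocytes (adjusted p = 0.0617) passed. The MHCIIlow call was lost under 8 of 15 alternatives, among them the fixed block (adjusted p = 0.0816) and leaving out MHCIIlow pool V or VII or monocyte pool I or II (adjusted p 0.0671 to 0.160).

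Ftl1 (chromosome 7, 45457944 to 45459884) had 860 to 2054 RPKM in macrophages and monocytes. Neutrophils had 2348, 2495 and 2619 RPKM in LP and 5442, 4421 and 4040 in tumours, without overlap. Of its 51-base stretches, the length of a read, 58.2% also occur in other genes such as Ftl1-ps1 and Gm15590, and 34.6% of its exon bases overlap other genes, so how its reads were assigned is uncertain. The neutrophil difference of 0.89 passed (SE 0.25, limma adjusted p = 0.0108), but not under quantile normalization (adjusted p = 0.835) or summed reads (adjusted p = 0.139). The differences in MHCIIhi macrophages, MHCIIlow macrophages and monocytes were -0.18, 0.17 and 0.57 (SE 0.25 each, limma adjusted p 0.701, 0.687 and 0.179). Per length, Fth1 exceeded Ftl1 by 1.60 to 2.08 on the log2 scale in the macrophage groups, by 2.72 and 3.05 in LP and tumour monocytes and by 3.77 and 3.34 in LP and tumour neutrophils.

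Hmox1 (chromosome 8, 75093621 to 75100589) was higher in tumours in monocytes and neutrophils. LP monocytes had 423, 594 and 397 RPKM and tumour monocytes 1229, 1196 and 1729, a 2.94-fold rise without overlap (1.56, SE 0.34, limma adjusted p = 0.00631). LP neutrophils had 296, 436 and 269 and tumour neutrophils 858, 624 and 1127, a 2.59-fold rise without overlap (1.37, SE 0.34, limma adjusted p = 0.00467). The neutrophil difference was 0.92 under quantile normalization and 0.90 under summed reads and still passed. Erythroid markers above 3 reads in any library numbered 0 of 6 in LP neutrophils, where 5 of 6 had no read, and 5 of 6 in tumour neutrophils. Their sum was 0.0409 to 0.149 RPKM in LP and 11.3 to 19.5 in tumour neutrophils, and 0.322 to 0.411 and 2.20 to 3.57 in monocytes. The part of these and of the epithelial markers in the rise of Hmox1 was not tested.

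Macrophages showed no tissue difference of Hmox1 that passed. MHCIIhi macrophages had 576, 614 and 591 RPKM in LP and 458, 710 and 230 in tumours, and the tumour pools spread on both sides of LP (-0.49, SE 0.34, limma adjusted p = 0.368). MHCIIlow macrophages had 1238, 1219 and 997 in LP and 1195, 1100 and 538 in tumours (-0.36, SE 0.34, limma adjusted p = 0.509). Pool VII was the lowest in both tumour subsets. The tumour effect was lower in macrophages than in monocytes by 1.99 (-1.99, SE 0.42, limma adjusted p = 0.0041) and lower than in neutrophils by 1.80 (-1.80, SE 0.42, limma adjusted p = 0.00362), the latter in the comparison added after seeing the data, and both passed in all 27 alternatives. In LP, Hmox1 was 2.47-fold higher in MHCIIlow macrophages than in monocytes (1.30, SE 0.34, limma adjusted p = 0.00703), and in tumours it was 3.24-fold lower in MHCIIhi macrophages than in monocytes (-1.70, SE 0.34, limma adjusted p = 0.000686). The groups from tumour monocytes to tumour neutrophils overlapped in sequence at the top of the order, and those from LP MHCIIhi macrophages to LP neutrophils at the bottom.

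Hmox1 and Slc40a1, the release of iron from haem and its export, differed in their distance. Hmox1 exceeded Slc40a1 by 1.62 on the log2 scale in LP neutrophils and by 5.10 in tumour neutrophils, with no overlap between their libraries (1.46 to 1.71 and 4.81 to 5.62). In MHCIIhi macrophages the distance went from 6.40 in LP to 3.98 in tumours, and in MHCIIlow macrophages from 6.10 to 4.73. In monocytes it was 10.3 in LP and 12.6 in tumours. These differences restate the levels above and were not tested on their own.

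Blvrb (biliverdin reductase B, chromosome 7, 27447978 to 27466144) marked macrophages in both tissues. Macrophage libraries had 25.7 to 59.7 RPKM, monocytes 4.90 to 12.3 and neutrophils 3.01 to 6.70. MHCIIlow macrophages exceeded monocytes by 2.69 in LP and 2.05 in tumours, and MHCIIhi macrophages by 2.23 and 1.59 (SE 0.31 each, limma adjusted p 1.51e-06, 2.96e-05, 2.66e-05 and 0.000432). Neutrophils differed from monocytes by -1.05 in LP (limma adjusted p = 0.0072) and by -0.85 in tumours (limma adjusted p = 0.0230). The LP call was lost with voom (adjusted p = 0.0735) and with only the libraries compared (adjusted p = 0.0618). The tumour call was lost with quantile normalization, voom and only the libraries compared (adjusted p 0.0664 to 0.242) and without tumour monocyte pool I or II or neutrophil pool II (adjusted p 0.0708 to 0.108). No tissue difference passed: the values were -0.38, -0.39, 0.25 and 0.45 in MHCIIhi macrophages, MHCIIlow macrophages, monocytes and neutrophils (SE 0.31 each, limma adjusted p 0.453, 0.412, 0.709 and 0.289). Within both tissues the macrophage subsets overlapped.

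Ireb2 (iron-regulatory protein 2, chromosome 9, 54863789 to 54912530) varied over a narrow range, from 3.08 to 9.86 RPKM. LP neutrophils had 9.15, 8.51 and 7.61 and tumour neutrophils 3.92, 4.61 and 3.28, a 2.15-fold fall without overlap (-1.11, SE 0.23, limma adjusted p = 0.000869) that passed under every alternative. The other populations did not pass, with -0.33, -0.48 and -0.11 in MHCIIhi macrophages, MHCIIlow macrophages and monocytes (SE 0.23 each, limma adjusted p 0.361, 0.139 and 0.842), and MHCIIlow macrophages were called only without tumour pool VII (adjusted p = 0.0276). In tumours Ireb2 was lower than in monocytes in MHCIIhi macrophages (-1.0), MHCIIlow macrophages (-0.82) and neutrophils (-0.97), with limma adjusted p of 0.00173, 0.00801 and 0.00109. The MHCIIlow call was lost without tumour pool V (adjusted p = 0.0666), with only the libraries compared (adjusted p = 0.0639) and under summed reads (adjusted p = 0.218). The LP difference of MHCIIhi macrophages from monocytes, -0.79 (limma adjusted p = 0.0173), was lost without MHCIIhi pool III (adjusted p = 0.0905) or monocyte pool III or V (adjusted p 0.0510 to 0.0814).

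Cell types within a tissue were compared next, with monocytes as the shared reference. In LP, 5 of 9 genes passed between MHCIIhi macrophages and monocytes, 3 higher and 2 lower, where 20.1% of all genes passed (9.26% higher, 10.8% lower). Between MHCIIlow macrophages and monocytes 4 were higher and 1 lower, where 29.5% of all genes passed (11.9% and 17.6%). In tumours 7 of 9 passed for MHCIIhi macrophages, 3 higher and 4 lower (32.1% of all genes, 13.6% higher and 18.5% lower), and 5 of 9 for MHCIIlow macrophages, 2 higher and 3 lower (32.0% of all genes, 13.6% and 18.4%). Neutrophils against monocytes gave 6 of 9 in LP, 4 higher and 2 lower (54.5% of all genes, 24.1% higher and 30.4% lower), and 7 of 9 in tumours, 4 higher and 3 lower (58.1% of all genes, 23.3% and 34.9%). Slc40a1 was higher than in monocytes in all 6 comparisons, by 4.29 to 8.21 (SE 0.38 each, limma adjusted p at most 8.23e-08). With summed reads the split became 3 higher and 4 lower for neutrophils in LP, 2 higher and 4 lower for neutrophils in tumours and 4 higher and 1 lower for tumour MHCIIlow macrophages, and with quantile normalization 2 and 3, 1 and 4, and 3 and 2. For LP MHCIIlow macrophages it became 6 higher and 1 lower with summed reads. Among all called genes, summed reads moved the share that was higher from 44.2 to 21.4% for neutrophils in LP, from 40.0 to 15.6% for neutrophils in tumours, from 42.4 to 68.8% for tumour MHCIIlow macrophages and from 40.4 to 57.1% for LP MHCIIlow macrophages. The excess of Slc11a1 in tumour neutrophils over monocytes (1.01) turned to -0.62 and -0.12 under quantile normalization and summed reads. For LP MHCIIhi macrophages the call of Tfrc (-1.88, SE 0.62, limma adjusted p = 0.0382) was lost without MHCIIhi pool III (adjusted p = 0.257), without monocyte pool III or V (adjusted p 0.188 and 0.0528) with the fixed block (adjusted p = 0.0642), and with log2(RPKM + 1), voom and only the libraries compared (adjusted p 0.0537 to 0.181).

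Between the macrophage subsets, 3 of 9 genes passed in LP (Slc40a1 and Tfrc higher and Slc11a1 lower in MHCIIlow cells), where 7.7% of all genes passed (2.13% higher, 5.57% lower). In tumours 0 of 9 passed with limma, where 1.13% of all genes did (0.567% in each direction). At an unadjusted p under 0.05 there were 2, and with voom 0. The difference of the tumour effect between the subsets passed for 0 of 9 genes, against 1.46% of all genes (1.13% higher, 0.326% lower), with 2 at an unadjusted p under 0.05 and 0 with voom. Between macrophages and monocytes it passed for 4 of 9 genes, 1 higher and 3 lower (9.19% of all genes, 3.55% higher and 5.64% lower). Between neutrophils and monocytes it passed for 1 of 9, which was lower (9.11% of all genes, 3.61% and 5.5%). Between macrophages and neutrophils, the comparison added later, it passed for 3 of 9, 1 higher and 2 lower (26.0% of all genes, 14.5% and 11.5%). With summed reads that split was 2 higher and 1 lower, and with quantile normalization 2 and 2, where 82.3% and 46.1% of all called genes were higher, against 55.7% in the main analysis. The comparisons of tumour effects share libraries, since monocytes enter 2 of them and macrophages 3.

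**Figure D4:**
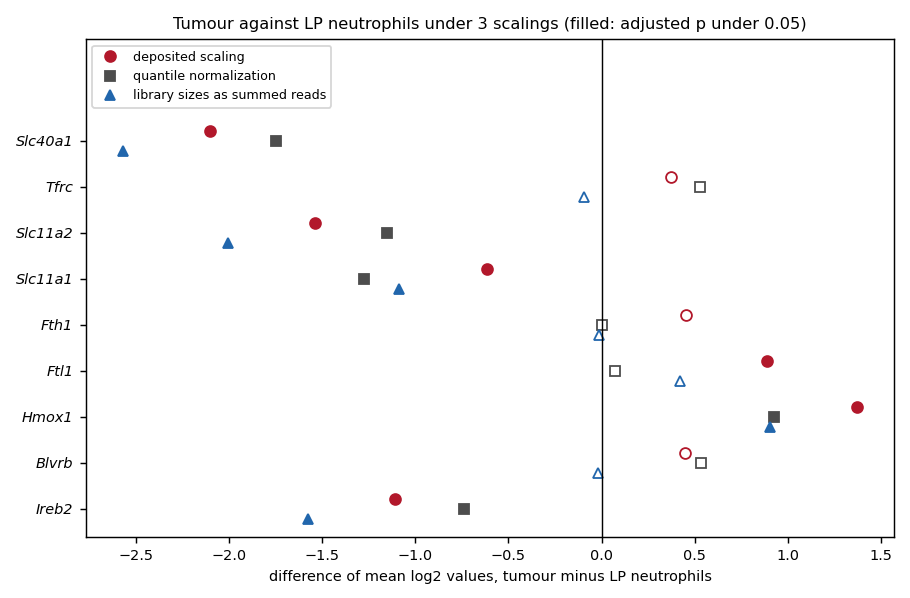
Difference between tumour and LP neutrophils for the 9 genes under 3 scalings of the libraries. The x axis is the difference of mean log2 values (n = 3 against 3) and filled symbols have an adjusted p under 0.05; Slc40a1, Slc11a2, Slc11a1, Ireb2 and Hmox1 keep side and call, whereas Ftl1 moves from 0.89 to 0.07 under quantile normalization.

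Other genes of iron and haem metabolism were counted in fixed lists, and each count stands beside the 19.5%, 23.3%, 9.29% and 32.2% of all genes that passed between tissues in MHCIIhi macrophages, MHCIIlow macrophages, monocytes and neutrophils. Of 10 tested genes of iron transport, 2 passed between tumour and LP in MHCIIhi macrophages (1 higher, 1 lower), 4 in MHCIIlow macrophages (2 and 2), 3 in monocytes (2 and 1) and 6 in neutrophils (1 and 5). With voom the counts were 4, 6, 3 and 3. Slc39a14 (ZIP14), an importer of iron not bound to transferrin, had 11, 12.8 and 10.7 RPKM in LP and 4.23, 3.14 and 3.03 in tumour MHCIIhi macrophages, and 22.5, 23.1 and 20.9 against 4.32, 3.83 and 2.99 in MHCIIlow macrophages. It fell by 1.74 and 2.59 on the log2 scale (SE 0.20 each, limma adjusted p = 3.83e-06 and 3.00e-08). Trf, the gene of transferrin, rose by 0.91 and 1.53 in the same cells (SE 0.18 each, limma adjusted p = 0.00133 and 3.93e-06). Slc25a37 (mitoferrin 1), which carries iron into mitochondria, rose by 1.00 in monocytes (SE 0.23, limma adjusted p = 0.00876). This call was lost with the fixed block (adjusted p = 0.0562) and with only the libraries compared (adjusted p = 0.0644). It was also lost without LP monocyte pool V (adjusted p = 0.0556) or tumour monocyte pool I (adjusted p = 0.0604). Slc25a37 was also called higher in tumours in MHCIIlow macrophages (limma adjusted p = 0.0157) and neutrophils (limma adjusted p = 0.0301). The MHCIIlow call was lost with only the libraries compared (adjusted p = 0.104). The neutrophil call was lost under quantile normalization (adjusted p = 0.0818) and summed reads (adjusted p = 0.499). Both were lost when some single libraries were left out.

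Of 9 tested genes of iron regulation and storage, 2 rose in each macrophage subset and none fell, 0 passed in monocytes with limma (1 at an unadjusted p under 0.05, 0 with voom), and 5 passed in neutrophils (4 higher, 1 lower). The 2 of 9 in each macrophage subset are near the shares of all genes. With voom the counts were 4, 3, 0 and 2. Hfe, whose protein binds the transferrin receptor, had 26.0, 26.4 and 27.7 RPKM in LP and 67.0, 79.8 and 72.0 in tumour MHCIIhi macrophages (1.45, SE 0.27, limma adjusted p = 0.00063), and rose by 0.97 in MHCIIlow macrophages (SE 0.27, limma adjusted p = 0.0116). The MHCIIlow call was lost with the fixed block (adjusted p = 0.148) and without LP pool IV (adjusted p = 0.0631) or tumour pool I (adjusted p = 0.0552). Fbxl5, the iron sensor that marks Ireb2 protein for degradation, had 138, 134 and 96.7 RPKM in LP neutrophils and 332, 291 and 291 in tumour neutrophils (1.32, SE 0.25, limma adjusted p = 0.000489). It stood at 8.62 to 16.7 RPKM in all macrophage libraries. Ncoa4, which delivers ferritin to lysosomes, rose by 0.66, 0.69 and 0.66 in MHCIIhi macrophages, MHCIIlow macrophages and neutrophils (SE 0.19 each, limma adjusted p 0.0151, 0.00969 and 0.0101), and with the fixed block none of these 3 passed (adjusted p 0.138, 0.10 and 0.0652). The MHCIIhi call was also lost without LP pool IV or tumour pool V or VII (adjusted p 0.0534 to 0.0899) and with only the libraries compared (adjusted p = 0.0776). The neutrophil call was also lost under summed reads (adjusted p = 0.484) and with voom (adjusted p = 0.0552). Aco1, the other iron-regulatory protein, did not pass in any population by limma (adjusted p 0.164 to 0.902), although neutrophils passed without LP pool V (adjusted p = 0.00343), MHCIIlow macrophages with log2(RPKM + 1), voom and only the libraries compared (adjusted p 0.00638 to 0.0280) and MHCIIhi macrophages with voom (adjusted p = 0.0494).

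Of 10 tested genes of haem uptake and breakdown, 0 passed in MHCIIhi macrophages with limma (3 at an unadjusted p under 0.05, 5 with voom), 1 fell in MHCIIlow macrophages, 1 rose in monocytes, and 5 passed in neutrophils (2 higher, 3 lower). With voom the other counts were 4, 3 and 4. Cd163, the receptor for haptoglobin-bound haemoglobin, had 61.3, 25.7 and 37.6 RPKM in LP MHCIIlow macrophages and 0.295, 1.70 and 1.98 in tumours (-5.29, SE 1.41, limma adjusted p = 0.00887, and 0.0503 without tumour pool I). MHCIIhi macrophages had 3.60, 4.56 and 8.16 against 0.327, 0.520 and 0.255, without overlap, and did not pass (limma adjusted p = 0.0603). This difference passed under 5 of 15 alternatives: log2(RPKM + 1), voom, only the libraries compared, a mean of at least 5 RPKM and quantile normalization (adjusted p 5.26e-05 to 0.0497). Cd163 was also called lower in tumour than in LP neutrophils (limma adjusted p = 0.0173). That call was lost with log2(RPKM + 1), voom and only the libraries compared (adjusted p 0.183 to 0.675). Leaving out LP neutrophil pool IV or V also removed it (adjusted p 0.114 and 0.0740). Slc48a1, which exports haem from the phagolysosome, had 16, 18.5 and 13.9 RPKM in LP and 25.0, 26.7 and 39.8 in tumour monocytes (0.90, SE 0.21, limma adjusted p = 0.00789). This call was lost without tumour pool V (adjusted p = 0.0533) and with only the libraries compared (adjusted p = 0.0644). Slc48a1 was also called higher in tumour than in LP neutrophils (limma adjusted p = 0.0309). That call was lost under summed reads, voom and only the libraries compared (adjusted p 0.0641 to 0.622). Leaving out LP neutrophil pool IV or V or tumour neutrophil pool V also removed it (adjusted p 0.0570 to 0.126). Of 10 genes of haem synthesis, 3 passed in MHCIIhi macrophages (2 higher, 1 lower) and 3 in MHCIIlow macrophages (3 higher, 0 lower). In monocytes 1 passed (higher) and in neutrophils 4 (3 higher, 1 lower). With voom 7, 3, 1 and 2 passed in the same order. Ppox rose in the macrophage subsets by 0.87 and 0.85 (SE 0.21 each, limma adjusted p = 0.00541 and 0.0050). The MHCIIhi call was lost with the fixed block (adjusted p = 0.0713), and the MHCIIlow call with only the libraries compared (adjusted p = 0.0969).

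Of 12 tested genes of mitochondrial iron and iron-sulphur clusters, 3, 4 and 2 rose and none fell in MHCIIhi macrophages, MHCIIlow macrophages and monocytes, and 5 passed in neutrophils (3 higher, 2 lower). With voom the counts were 5, 7, 2 and 1. Of 2 tested genes of siderophore defence 0 passed in any population by limma (at most 1 in a population at an unadjusted p under 0.05 or with voom). Of 8 regulators 3, 4, 0 and 1 passed in the same order of populations (1 higher and 2 lower, 1 and 3, 0, and 1 lower), with 1 in monocytes at an unadjusted p under 0.05. With voom the counts were 3, 4, 1 and 0.

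Hmox1 is a textbook target of the activator NRF2 (Nfe2l2) and the haem-sensitive repressor Bach1. Bach1 had 22.6, 21.9 and 24.2 RPKM in LP and 9.48, 9.66 and 5.81 in tumour MHCIIhi macrophages, and 27.7, 22 and 35.7 against 6.54, 5.02 and 2.49 in MHCIIlow macrophages. It fell by 1.5 and 2.69 (SE 0.30 each, limma adjusted p = 0.00139 and 2.09e-06). Nfe2l2 rose in the same cells by 1.18 and 0.73 (SE 0.16 each, limma adjusted p = 2.53e-05 and 0.00232). In monocytes and neutrophils, where Hmox1 rose, Bach1 differed by 0.19 and 0.13 (SE 0.30 each, limma adjusted p 0.785 for both) and Nfe2l2 by 0.00 and 0.25 (SE 0.16 each, limma adjusted p 1.00 and 0.260). The tumour effect in macrophages was below that in monocytes for Bach1 (-2.29, SE 0.37, limma adjusted p = 0.000451) and above it for Nfe2l2 (0.95, SE 0.20, limma adjusted p = 0.00357). All of these are RNA levels. The activity of the NRF2 and Bach1 proteins was not measured, and their part in the Hmox1 values was not tested.

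Of 12 tested targets of these factors other than Hmox1, 7 fell and 0 rose in MHCIIhi macrophages by limma, with a median of -1.67 beside 0.00 for all genes. In MHCIIlow macrophages 3 rose and 4 fell, in monocytes 1 fell, and in neutrophils 1 rose and 1 fell. With voom 8, 7, 3 and 1 passed. Nqo1, a quinone reductase, had 4.70, 8.65 and 6.91 RPKM in LP and 0.241, 0.689 and 0.272 in tumour MHCIIhi macrophages (-4.20, SE 0.37, limma adjusted p = 1.40e-07), and fell by 1.43 in MHCIIlow macrophages and 2.01 in monocytes. In neutrophils it had 12.8, 17.0 and 12.9 in LP and 13.8, 9.73 and 15.5 in tumours. The list was set with earlier results of these libraries known and has no test of its own.

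**Figure D5:**
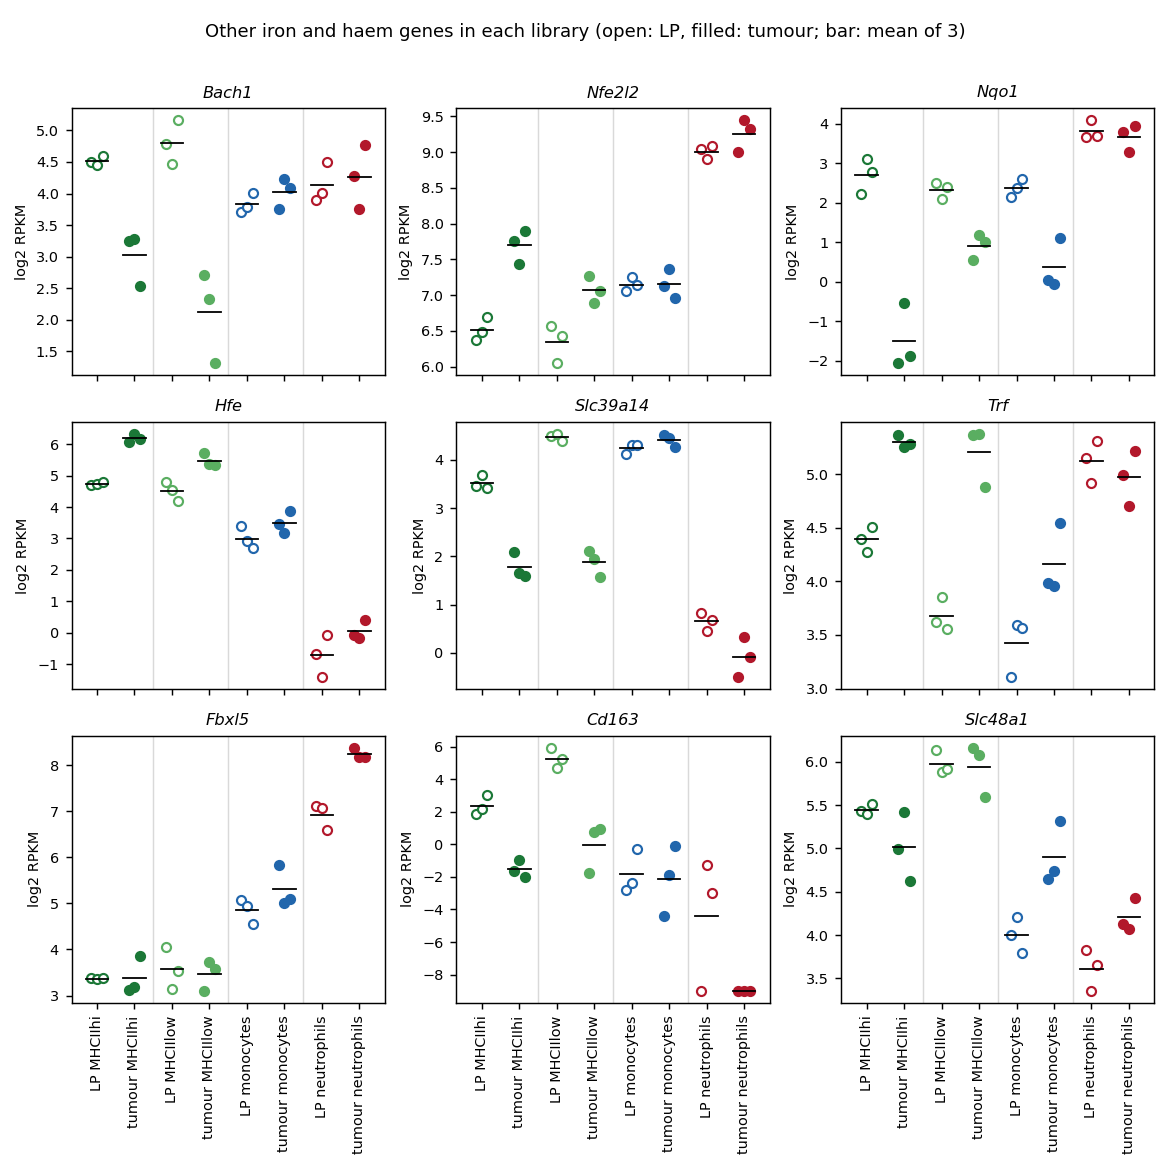
Level of 9 further iron and haem genes in each library, as log2 RPKM, with LP open, tumour filled and the mean of 3 libraries as a bar. Bach1 and Slc39a14 are lower and Nfe2l2 and Hfe higher in every tumour macrophage library than in any LP library of the same subset, and Fbxl5 is highest in tumour neutrophils.

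The genes whose log2 RPKM followed a member most closely over the 24 libraries were sought among 5396 genes with a mean of at least 10 RPKM in a group. For Slc40a1 they were Nek6 (Pearson r 0.94), Slc26a11 (0.93) and Mylip (0.93). For Hmox1 they were Capns1 (0.75), Adam15 (0.71) and Sept9 (0.70), and for Tfrc Rnf128 (0.59), Mid1ip1 (0.57) and Fdft1 (0.54). The points share the 8 groups and the scaling of the libraries, so these values mostly describe differences between groups.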

How the data were processed

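The deposited table holds log2 RPKM for 24 libraries made with SMARTSeq v2. The submitters' processing notes name STAR, featureCounts, edgeR and GRCm38 (mm10). The kit does not mark strand, and genes with few reads had been removed before deposit. From the values, whole reads were recovered for 100% of 415224 entries (tolerance 0.01). Depth was 12.8 to 41.7 M reads, and 0 spike-in rows were present.

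Libraries were grouped by population and tissue from the labels. All 24 entered 1 limma fit (limma 3.58.1, R 4.3.3, trend on mean level) of 8 group means. The fit covered the 12878 genes whose mean reached 1 RPKM in a group, and p-values were adjusted by Benjamini-Hochberg within each of 16 comparisons (threshold 0.05). Of these, 15 were fixed at the outset and 1, the tumour effect in macrophages against neutrophils, was added after seeing the data. P-values set each difference against a spread between pools that was estimated for each gene over all 8 groups together. Alternatives were log2(RPKM + 1), no filter, a mean of at least 5 RPKM, quantile normalization, library sizes as summed reads, voom on the recovered reads, only the libraries compared, pool as a random block, donor number as a fixed block, and leaving out each library. The fixed block treats equal numbers in LP and tumours as shared, although the tissues came from different mice and no source used here says what an equal number shares. The code was tested on simulated data. The labels call the pool number a donor, so libraries of 1 number and tissue share their tissue source, and deviations of 29 such pairs correlated at -0.066 to 0.25 (median 0.017).

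The members and lists were chosen with earlier results of these data known. Every member is described. Other genes were named where they are the called genes with the largest differences in their list without overlap of groups, or regulators of the pathway. Aco1, Cd163 in MHCIIhi macrophages and neutrophils, and Nqo1 and Slc48a1 in neutrophils were named after their values were seen. The same holds for Slc25a37 in MHCIIlow macrophages and neutrophils. Symbols and coordinates are from GENCODE M21 (GRCm38), and 17190 of 17301 identifiers matched. Some genes of these lists are not reported here.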

Additional observations from a re-analysis of the deposited data

Results flagged for a closer look

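Differences of the tumour effect between populations passed limma's test for 5 of the genes and are listed as a whole. For Slc40a1 the effect in macrophages exceeded that in monocytes by 2.14 and that in neutrophils by 3.57. For Hmox1 it was below that in monocytes (-1.99) and in neutrophils (-1.80). For Slc11a1 it was below that in monocytes in macrophages (-1.03) and in neutrophils (-0.95), and for Slc11a2 it was below that in monocytes in macrophages (-1.05). For Ftl1 the effect in macrophages was below that in neutrophils (-0.89, limma adjusted p = 0.0393), and 11 of 27 alternatives kept this call. It was lost under quantile normalization (adjusted p = 0.642), under summed reads (adjusted p = 0.315), with only the libraries compared (adjusted p = 0.0546), with the fixed replicate block (adjusted p = 0.0561) and without 12 of the 18 libraries in turn (adjusted p 0.0559 to 0.101), that is, without any but pool III of LP MHCIIhi macrophages, pool II of LP MHCIIlow macrophages, pool I of tumour MHCIIhi macrophages, pools I and V of tumour MHCIIlow macrophages and pool V of tumour neutrophils. The comparisons of macrophages with neutrophils were chosen after seeing the data, and these comparisons share the libraries of the populations they have in common.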

How the results depend on the processing

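Of 144 results for the 9 genes, 82 were followed: every difference between tumour and LP, and results of other comparisons where the gene was called. Of 1320 values recomputed for these, 1217 kept direction and side of the threshold. Of the others, 71 kept direction and lost the call, 14 kept direction and gained it, and 18 changed sign or became 0. The 18 include values that also lost the call, such as Ftl1 in neutrophils against monocytes under quantile normalization, so lost calls exceed 71. Uncalled results of the other comparisons are outside these counts, so calls gained or signs changed there are not included. Counts of the 9 genes called by limma moved as follows. Between tumour and LP in MHCIIlow macrophages the count of 1 became 3 with log2(RPKM + 1), 2 with a mean of at least 5 RPKM, 2 with quantile normalization, 4 with voom, 2 with only the libraries compared and 1 to 2 with a library left out. In monocytes the count of 2 became 1 with the replicate block (donor number as a fixed term), and 1 to 2 with a library left out. Between tumour macrophage subsets the 0 became 2 with quantile normalization, 1 with the fixed block and 0 to 1 with a library left out. Leaving out a library gave 3 to 5 in place of 5 for MHCIIhi macrophages against monocytes in LP and for MHCIIlow macrophages against monocytes in tumours, and 0 to 1 in place of 0 for the difference of the tumour effect between subsets. For neutrophils against monocytes the difference of the effect gave 1, and 3 with log2(RPKM + 1), 2 with a mean of at least 5 RPKM, 4 with summed reads, 2 with pool as a random block and 1 to 3 with a library left out. Against neutrophils the macrophage effect gave 3, 5 with log2(RPKM + 1) and 2 to 4 with a library left out.

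Among the results followed, signs changed or differences became 0.00 as given here, and the cause was not tested. Quantile normalization gave Ftl1 -0.16 and -0.15 for neutrophils against monocytes in LP and tumours and -0.0494 between tissues in MHCIIlow macrophages, Fth1 0.00 in neutrophils between tissues and Slc11a1 -0.62 for tumour neutrophils against monocytes. Summed reads gave -0.12 for the last, and -0.0197 for Blvrb, -0.0132 for Fth1 and -0.0949 for Tfrc in neutrophils between tissues. The fixed block gave -0.0215 for Blvrb in monocytes, 0.0801 and 0.11 for Hmox1 in MHCIIhi and MHCIIlow macrophages and -0.10 for Tfrc in neutrophils. With a library left out, Blvrb in monocytes ranged from -0.11 to 0.51, Fth1 in MHCIIhi macrophages from -0.0215 to 0.35, Ftl1 in MHCIIlow macrophages from -0.0150 to 0.40, Hmox1 in MHCIIlow macrophages from -0.57 to 0.00123 and Ireb2 in monocytes from -0.26 to 0.0208. The fixed replicate block also gave calls of Hmox1 between macrophage subsets in LP and tumours (adjusted p = 0.0143 and 0.0254, limma) and for tumour neutrophils against monocytes (adjusted p = 0.0157, limma), and the random block a call of Ireb2 for the tumour effect in neutrophils against monocytes (adjusted p = 0.048, limma). Beyond these and the lost calls given with the genes, the blocks changed no call of the 9 genes. Depth limits Slc40a1 in monocytes, with at most 121 reads a library.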
